A study of Mus musculus with 14 samples.

Results

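The genes described here are 10 mouse genes of the p53 pathway and of the integrated stress response, chosen by symbol out of 56923 genes in a table of RNA-seq counts from 2-cell embryos. Trp53, Mdm2, Cdkn1a, Ccng1 and Gadd45a make up the p53 group, and Atf4, Ddit3, Trib3, Chac1 and Asns the integrated stress response group. The symbols matched 11 entries of the table, because Ddit3 is listed under a second identifier (ENSMUSG00000116429.2) that held 0 counts in all 14 libraries. All 10 genes had at least 1 count in some library. Trib3, Cdkn1a, Gadd45a, Mdm2 and Ddit3 each had a higher level in every late 2-cell library than in any early 2-cell library. Trp53 had its highest levels in the early embryos. The share of all genes separated by stage in this way was not counted.

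p53 is a transcription factor that is held at a low level by the ubiquitin ligase MDM2 and accumulates when DNA is damaged or growth is disturbed, after which it raises transcription of genes that halt the cell cycle. The integrated stress response starts when kinases phosphorylate the translation factor eIF2, which lowers protein synthesis but favours translation of ATF4, a transcription factor for genes of amino acid supply and stress. In mouse embryos the 2-cell stage is when stored maternal RNA is lost and the major wave of zygotic genome activation (ZGA) begins, so transcripts of both pathways can be maternal, zygotic or both.

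The study asked how lactate, and the histone mark H3K18 lactylation derived from it, bears on this activation. Embryos of 7 conditions were sequenced, with 2 libraries per condition and 5 embryos per library. Embryos were moved at 24 h post-hCG into mKSOM that contained Gne140 (5 μM), which blocks both lactate dehydrogenases, and NMN (50 μM), a precursor that replenishes NAD. They were collected as early 2-cell embryos at 30 h or as late 2-cell embryos at 54 h after hCG. The medium held 10 mM lactate in the G&N groups and no lactate in the G&N-L groups, so G&N is itself an inhibitor-treated group. A further late 2-cell group, here Lac-CoA, was kept as G&N-L and injected with 1 mM Lac-CoA, the substrate of histone lactylation; its label says CoA. The last pair of late 2-cell groups was H3K18R, injected at 14 h post-hCG with mRNA of histone H3 in which lysine 18 is arginine, and WT, whose label gives no agent and which the study describes as injected with wild-type H3 mRNA. The treatment labels of the early libraries name only GNE140 for G&N and GNE140 with NMN for G&N-L, and the condition was taken from the titles. The deposited columns of the mutant are named K18A.

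Library totals ran from 20350427 to 61275465 counts, so each gene was measured at a depth where a count of 0 allows up to 3 counts, or 0.0490 to 0.147 CPM (counts scaled to library size) of the library total. Levels below are CPM on library sizes normalized by TMM over the 14 libraries, as mean ± SD with n = 2. No source says that libraries of a group came from separate animals or days, and p-values therefore measure the spread between these libraries. The libraries are pools of whole embryos scaled to a common size, so fewer embryos with a transcript and less of it per embryo cannot be told apart. Markers of the oocyte and early embryo, 10 genes in all, summed to 19802 to 26577 CPM in the 4 early libraries. In late embryos they summed to 12982 and 14909 CPM in G&N, 16635 and 19141 in G&N-L, 14044 and 9845 in Lac-CoA, 3931 and 8138 in H3K18R, and 3562 and 3671 in WT. The 7 late 2-cell markers found summed to 462 to 810 CPM in early libraries and 1030 to 3374 in late libraries. Of 15 cumulus cell markers, 6 to 12 were at 0 in each library and the sum lay between 17.5 and 48.5 CPM, with Amh and Inhba at 0 throughout. Counts of H3c1, which encodes histone H3.1, reached 43643 and 83390 with H3K18R, against 4 and 3 in WT and no more than 66 elsewhere. It was the only gene past an adjusted p of 0.05 between H3K18R and WT (edgeR, adjusted p = 0.0220), and the WT counts do not show whether WT embryos received wild-type H3 mRNA.

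Sites that could link these genes to p53 or ATF4 were looked for in the mouse genome sequence, and the stretches that matched are shown so that they can be read beside the levels of their genes. The p53 consensus site, a run of 20 bases without a spacer, was searched on both strands within 3000 bases of the main start site. At most 1 mismatch was allowed. The core C(A/T)(A/T)G of each repeat in the site had to match, so the mismatch could fall only outside these cores. A site that met this rule was found in 0.703% of 21631 protein-coding genes and in 2 of the 10 members. The stretches below are from GRCm39, 5′ to 3′ on the strand of the gene, with the match in capitals. The Cdkn1a stretch lies on the plus strand at chr17:29309897-29309926, upstream of the gene, and its match starts at -2836 from the main start site. The Ccng1 stretch lies on the minus strand at chr11:40645758-40645787, in an intron, and its match starts at base 357 from the start site.
Cdkn1a: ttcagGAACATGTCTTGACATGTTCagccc
Ccng1: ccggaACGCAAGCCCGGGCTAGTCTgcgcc
The Cdkn1a match reads almost the same on both strands. No match was found near Trp53, Mdm2, Gadd45a, Atf4, Ddit3, Trib3, Chac1 or Asns, which says only that no stretch in that window met this rule.

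The element TGATGNAA, which ATF4 binds together with C/EBP proteins, was searched on both strands in the 250 bases before each RefSeq start site, and no match overlapped a p53 match. It was present in 3.45% of 32851 promoters and in those of Chac1 and Asns. The stretches below were placed on GRCm39 and are printed on the strand of the gene, with the match in capitals. That of Chac1 lies on the plus strand at chr2:119181519-119181548, at -193 from the start site, and holds the element on the opposite strand. That of Asns lies on the minus strand at chr6:7693214-7693243, at -23 from the start site.
Chac1: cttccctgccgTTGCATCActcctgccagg
Asns: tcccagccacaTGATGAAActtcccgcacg
As shown further down, neither gene was expressed above a few CPM in any library, so the element was found in the 2 members with the lowest levels. The other members had no match, which says only that these letters are not in the 250 bases searched.

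Per kilobase of exon the members spanned a wide range. Mdm2 had the highest median over the 14 libraries, at 18.5 CPM per kb, followed by Atf4 at 14.3. Ddit3 had 6.68, Gadd45a 5.21 and Trp53 2.998 CPM per kb. Cdkn1a, Ccng1 and Trib3 followed at 1.60, 1.19 and 1.07 CPM per kb. Asns had 0.0976, and the median of Chac1 was 0 because 9 of 14 libraries held no count. Lengths were the union of all exons in GENCODE vM39, from 1774 bases for Gadd45a to 11709 for Asns. Which of these transcripts the embryos held is not known, and the annotation used for counting is not given. The order between genes is therefore uncertain. The places of Ddit3 and Gadd45a are more so, since 4596 of 5579 and 990 of 1774 of their exon bases overlap opposite-strand genes.

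Trp53 (ENSMUSG00000059552.14, chr11:69469669-69482701, plus strand) encodes p53 itself. Its level was 70.2 and 55.8 CPM in the early G&N libraries and 56.3 and 37.8 CPM in the early G&N-L libraries. All 10 late libraries lay lower, between 9.22 and 23.5 CPM with a median of 18.2. Among them the order of means was Lac-CoA (22.9 ± 0.905), G&N (20.7 ± 1.77), G&N-L (19.6 ± 3.76), H3K18R (14.2 ± 0.118) and WT (12 ± 3.91). The late G&N and G&N-L libraries overlapped, as did those of H3K18R and WT, and every library of the 3 Gne140 groups lay above every library of H3K18R and WT. Trp53 shares 263 exon bases with Wrap53 and 156 with Gm57392 on the opposite strand, and since the strand setting of the counting is not given in the sources used here, their reads cannot be told apart.

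Mdm2 (ENSMUSG00000020184.16, chr10:117524780-117546730, minus strand), the ligase that marks p53 for degradation and is also transcribed in response to it, had the opposite order of stages. Early libraries held 97.0 and 107 CPM in G&N and 86.8 and 71.2 in G&N-L. Late libraries held 118 to 200 CPM with a median of 157, so no late library fell within the early range. The late group means ran from 136 ± 26 in G&N-L to 165 ± 12.8 in WT, and the 5 late groups overlapped with their neighbours in that order. The G&N-L libraries, at 118 and 155 CPM, nevertheless lay below both late G&N libraries and both WT libraries.

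Cdkn1a (ENSMUSG00000023067.15, chr17:29309936-29319701, plus strand) encodes the cyclin-dependent kinase inhibitor through which p53 stops the cell cycle. In early embryos it was low, at 2.61 and 1.34 CPM in G&N and 1.66 and 1.41 in G&N-L. In late embryos it fell into separate ranges. G&N-L held 11 and 8.27 CPM and WT 6.13 and 7.77, against 21.8 and 32.3 in G&N, 24 and 28.0 in Lac-CoA and 22.4 and 38.3 in H3K18R. The 3 higher groups overlapped with each other, and each of their libraries lay above each library of G&N-L, which in turn lay above those of WT. Cdkn1a shares 504 exon bases with Dino, a non-coding gene on the opposite strand.

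Ccng1 (ENSMUSG00000020326.8, chr11:40639377-40646148, minus strand) encodes cyclin G1, a product of p53 activity that acts back on MDM2. Early libraries were tight, from 4.71 to 5.40 CPM. Late libraries spread from 2.50 to 16.4 CPM, and replicates often differed more than groups. The Lac-CoA libraries held 5.04 and 15.6 CPM, the H3K18R libraries 5.03 and 16.4, and the G&N libraries 12 and 6.15. The lowest late group was G&N-L, with 3.07 and 2.50 CPM, below every other library of the series.

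Gadd45a (ENSMUSG00000036390.9, chr6:67012070-67014441, minus strand) encodes a growth arrest protein that both p53 and ATF4 can raise. It held 0.922 and 0.0910 CPM in early G&N and 0.982 and 0.544 in early G&N-L. Late G&N-L had 3.12 and 7.83 CPM and late G&N 7.74 and 10.7, which overlap. H3K18R had 13.7 and 17.5 CPM, Lac-CoA 16.9 and 21.0, and WT 37.8 and 25.0. WT thus lay above all other groups, and Lac-CoA and H3K18R above both lactate groups. Gadd45a shares 990 of its 1774 exon bases with E230016M11Rik on the opposite strand, which leaves its counts uncertain.

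**Figure D1:**
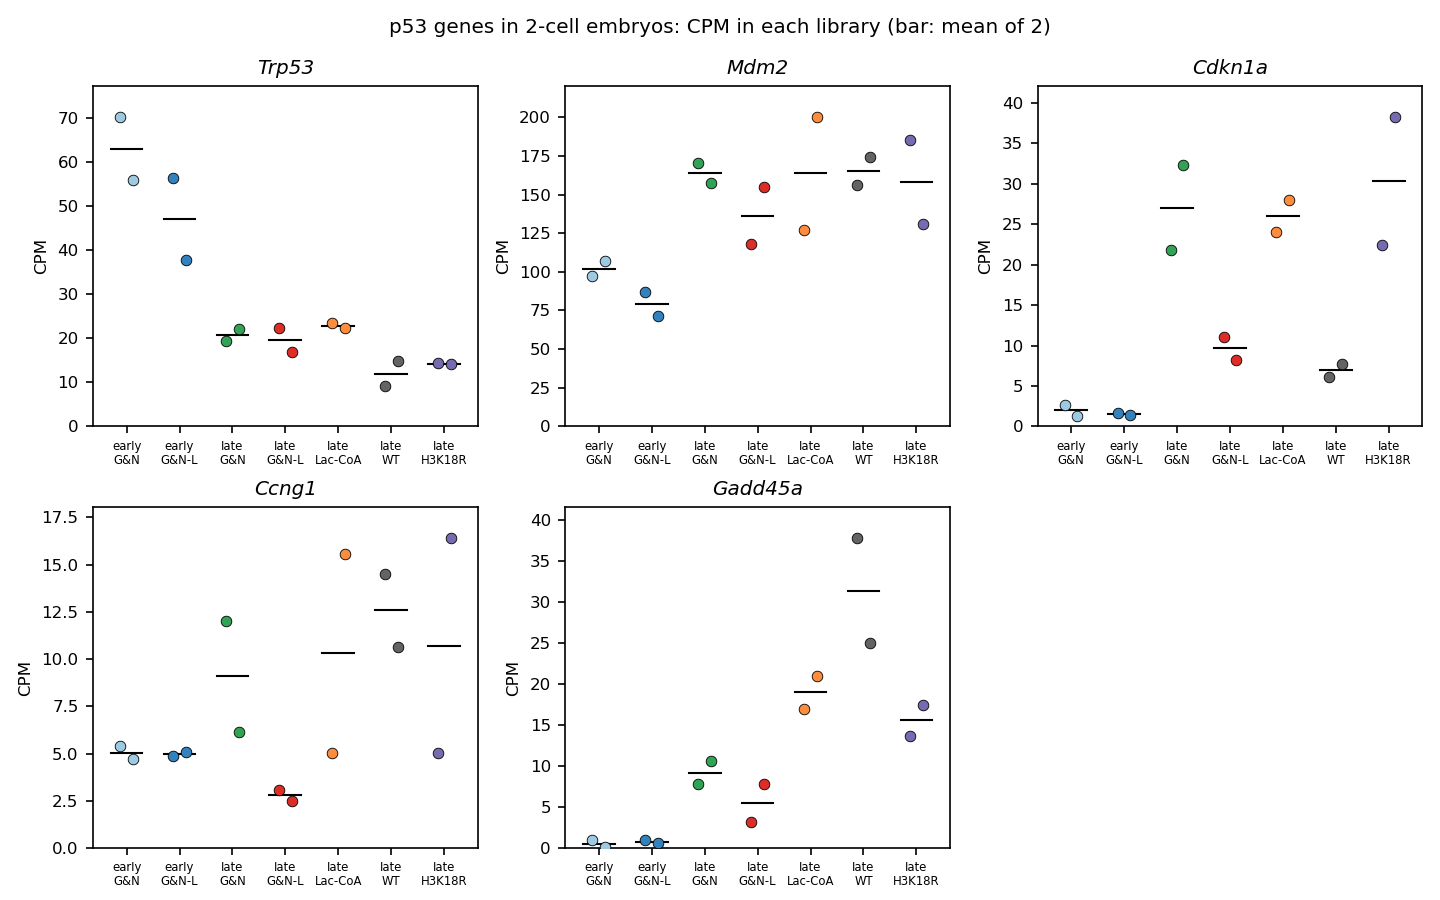
Levels of the 5 p53 genes in each library, in CPM on TMM-normalized library sizes, each panel on its own linear axis from 0; points are libraries and bars the mean of 2, and Lac-CoA stands for late G&N-L embryos injected with Lac-CoA. Trp53 is highest in the early groups, Mdm2, Cdkn1a and Gadd45a in late groups, and Cdkn1a is low in late G&N-L (11 and 8.27 CPM) and WT (6.13 and 7.77 CPM).

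Atf4 (ENSMUSG00000042406.9, chr15:80139372-80141745, plus strand), the central transcription factor of the integrated stress response, was present in every library. It held 40.2 and 15.9 CPM in early G&N, the widest gap between replicates for this gene, and 19.1 and 14.5 in early G&N-L. In late embryos G&N had the lowest libraries, 27.6 and 23.4 CPM, and G&N-L held 30.8 and 35.4. H3K18R had 32.6 and 41.2 CPM, Lac-CoA 36.0 and 50.5, and WT 57.0 and 63.3. WT lay above every other library and late G&N below every other late library, while Lac-CoA overlapped H3K18R and H3K18R overlapped G&N-L. ATF4 is regulated mainly by translation, which RNA levels do not measure.

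Ddit3 (ENSMUSG00000025408.16, chr10:127124268-127132163, plus strand) encodes CHOP, a transcription factor downstream of ATF4. Early libraries held 30.6 and 18.8 CPM in G&N and 24.9 and 14.7 in G&N-L. Late G&N held 33.1 and 43.4 CPM and late G&N-L 36.0 and 34.1. The highest pair was Lac-CoA, at 64.2 and 62.6 CPM, while H3K18R held 38.6 and 63.9 and WT 54 and 46.6. All 10 late libraries were thus above the 4 early libraries. Of its 5579 exon bases, 4596 overlap genes on the opposite strand, chiefly Mars1 with 3576, so the level of Ddit3 is uncertain; Mars1 had 0 to 279 counts per library against 325 to 2793 for Ddit3.

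Trib3 (ENSMUSG00000032715.10, chr2:152179337-152191958, minus strand) encodes a pseudokinase that dampens the ATF4 and CHOP response. It had 0 counts in all 4 early libraries, which allows up to 0.0490 to 0.128 CPM of the library total. In late embryos it held 2.08 and 3.15 CPM in G&N, 5.38 and 4.12 in G&N-L, 2.23 and 6.34 in Lac-CoA, 6.32 and 5.83 in H3K18R, and 9.87 and 14 in WT. Counts in these libraries ran from 76 to 454. WT lay above all other groups, and G&N lay below G&N-L, with Lac-CoA spanning both.

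Chac1 (ENSMUSG00000027313.4, chr2:119180757-119184866, plus strand), a glutathione-degrading enzyme, was seen in isolated libraries only. It had 78 counts in Lac-CoA replicate 1, 46 in H3K18R replicate 2 and 31 in early G&N replicate 1, with none in the other replicate of each. The remaining libraries held 0 or 2 counts. Asns (ENSMUSG00000029752.13, chr6:7671667-7728461, minus strand), the enzyme that makes asparagine, held 3.78 and 4.53 CPM in WT and 4.76 and 0 in late G&N-L. Its other late libraries lay between 0 and 1.29 CPM, and early libraries between 0.0504 and 2.63. WT was the only group in which both libraries held more than 3 CPM of Asns.

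**Figure D2:**
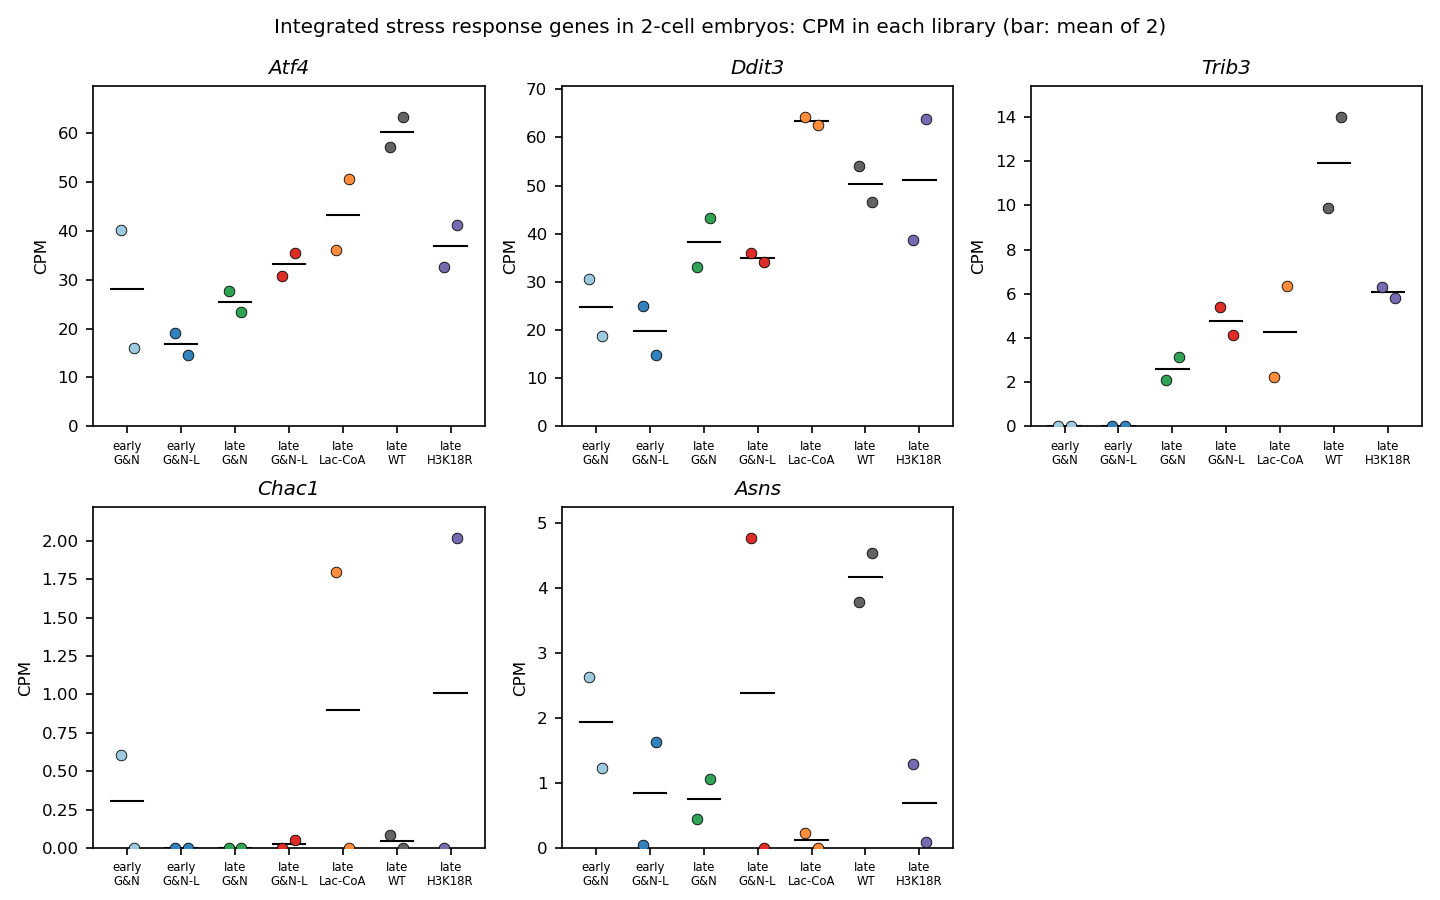
Levels of the 5 integrated stress response genes in each library, in CPM on TMM-normalized library sizes, each panel on its own linear axis from 0; points are libraries and bars the mean of 2. Trib3 is at 0 in the 4 early libraries, WT is highest for Atf4 (57.0 and 63.3 CPM) and Trib3 (9.87 and 14 CPM), and Chac1 rests on isolated libraries.

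From the early to the late 2-cell stage in lactate-fed G&N embryos, Cdkn1a and Trib3 rose and Trp53 fell. Cdkn1a rose from 1.98 ± 0.896 to 27.0 ± 7.42 CPM, which is 3.73 on the log2 scale (standard error 0.566, edgeR quasi-likelihood test, adjusted p = 0.0181). Trib3 rose at least 84.1-fold, counted against 3 counts over the early group (edgeR, adjusted p = 0.0440). Trp53 fell from 63.0 ± 10.2 to 20.7 ± 1.77 CPM, which is -1.67 on the log2 scale (standard error 0.310, edgeR, adjusted p = 0.0292). So 3 of the 9 members tested passed, 2 higher and 1 lower, against 13.7% of the 19443 genes tested. The median log2 fold change was 0.60 over the members and 0.08 over all genes tested. Gadd45a, from 0.507 ± 0.588 to 9.20 ± 2.06 CPM, had a larger log2 fold change of 4.18 but also a larger error (standard error 1.21, edgeR, adjusted p = 0.0711). Mdm2 had 0.60, Ccng1 0.78 and Ddit3 0.58, and Atf4 -0.16, each short of the threshold (edgeR, adjusted p from 0.178 to 0.862). At the looser criterion, which asks for a log2 fold change beyond 0.5 and a p under 0.05 before adjustment, 4 members passed against 34.4% of all genes.

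These calls rest on few libraries. Without late G&N replicate 1 or replicate 2 no member passed; the adjusted p of Cdkn1a was then 0.0678 and 0.0917 by edgeR, with log2 fold changes of 3.96 and 3.41. Without early G&N replicate 1 or 2, that of Cdkn1a was 0.0190 and 0.0304, while Trp53 had 0.0847 and 0.0591 and Trib3 0.0634 and 0.0658 (edgeR). Gadd45a passed only without early G&N replicate 1, at an adjusted p of 0.0231 (edgeR). By DESeq2, 4 members passed, the 3 above and Gadd45a (adjusted p = 9.2e-04), where that tool called 5959 of 19443 genes. Scaling to library totals moved the median of all genes to 0.46, and Trp53 then had a log2 fold change of -1.29 and an adjusted p of 0.0628 (edgeR). So 2 members passed as higher and 0 as lower, where 2005 of all genes were called higher and 618 lower. Of all calls, 76.4% instead of 59.9% were then higher.

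Without lactate, Trib3 was the only member that passed between stages. It rose at least 97.9-fold (edgeR, adjusted p = 0.0358), so 1 of 9 members tested passed against 11.8% of 18604 genes. Trp53 went from 47.1 ± 13.1 to 19.6 ± 3.76 CPM, which is -1.31 on the log2 scale (standard error 0.313, edgeR, adjusted p = 0.0585). Cdkn1a went from 1.53 ± 0.182 to 9.65 ± 1.95 CPM, which is 2.59 on the log2 scale (standard error 0.625, edgeR, adjusted p = 0.0593). Mdm2 had 0.73, Gadd45a 2.78 and Atf4 0.92 (edgeR, adjusted p = 0.0785, 0.114 and 0.0951). Ccng1 had -0.89 (95% interval -2.65 to 0.87, edgeR, adjusted p = 0.465), the opposite sign to its value with lactate. The interval with lactate was -0.83 to 2.40, so neither sign is settled. The median was 0.92 over the members and 0.15 over all genes, or 0.51 over all genes with library totals. At the looser criterion 6 members passed, 5 higher and 1 lower, against 32.2% of all genes, and 6 passed by DESeq2, which called 5218 of 18604 genes. Without any 1 of the 4 libraries Trib3 no longer passed, at an adjusted p of 0.0502 to 0.162 (edgeR). With library totals 4 members passed, all higher, where 1819 of all genes were called higher and 685 lower. Of all calls, 72.6% instead of 50.4% were then higher.

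**Figure D3:**
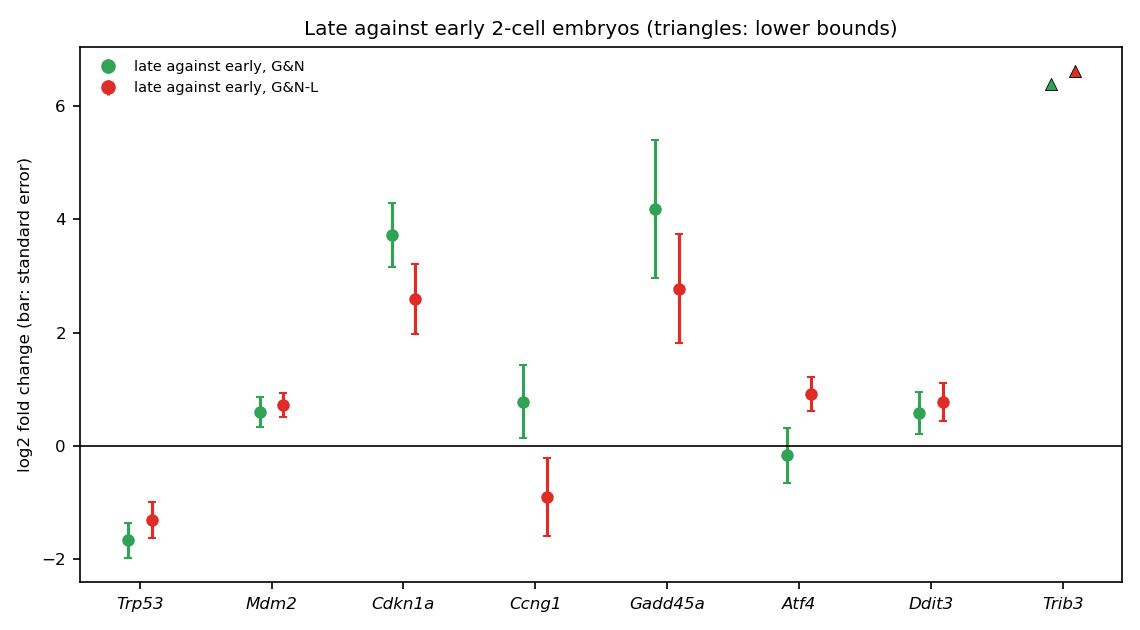
Log2 fold changes of 8 genes from early to late 2-cell embryos, with lactate (G&N) and without (G&N-L); circles are edgeR estimates with the standard error, triangles the lower bounds of Trib3, which had 0 counts in early libraries. Cdkn1a (3.73 and 2.59) and Gadd45a (4.18 and 2.78) lie above 0 and Trp53 (-1.67 and -1.31) below it in both media. The estimates of Ccng1 (0.78 and -0.89) differ in sign, but the 95% interval of each holds 0.

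Whether the change between stages depended on lactate was tested as an interaction over the 8 libraries of these 4 groups. No member passed (0 of 9, against 0 of 22287 genes or 0%; 0 members at an unadjusted p under 0.05 and 0 by DESeq2). Over all genes, 1683 had an unadjusted p under 0.05 and 231 passed by DESeq2. The estimate for Cdkn1a was -1.18 (standard error 0.738, 95% interval -2.87 to 0.51, edgeR, adjusted p = 0.735). For Ccng1 it was -1.72 (95% interval -3.82 to 0.38, edgeR, adjusted p = 0.688) and for Atf4 1.04 (95% interval -0.29 to 2.38, edgeR, adjusted p = 0.706). The intervals therefore hold both no dependence on lactate and differences of more than 2 on the log2 scale.

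In late 2-cell embryos, lactate removal lowered no member past the adjusted threshold, and Cdkn1a and Ccng1 had the largest differences among genes with counts in every library (Asns, at 1.74, rested on G&N-L replicate 1). Cdkn1a was 9.65 ± 1.95 CPM without lactate and 27.0 ± 7.42 with it, which is -1.43 on the log2 scale (standard error 0.415, 95% interval -2.47 to -0.39, edgeR, adjusted p = 0.332). The groups did not overlap. Without each library in turn the estimate stayed between -1.67 and -1.09. Ccng1 was 2.79 ± 0.398 against 9.08 ± 4.14 CPM, again without overlap, or -1.67 on the log2 scale (standard error 0.671, edgeR, adjusted p = 0.422). Without G&N replicate 1 it was -1.05, and over all 4 libraries left out in turn it ran from -2.02 to -1.05. Of the integrated stress response genes, Atf4 had 0.42 and Trib3 0.92, both with G&N-L libraries above G&N libraries, and Ddit3 -0.07 (edgeR, adjusted p from 0.748 to 0.987). Trp53 had -0.03 and Gadd45a -0.70, both with overlapping libraries. Mdm2 had -0.22, with both G&N-L libraries below both G&N libraries. With 2 libraries against 2, groups can also separate without a difference. How large a share of all genes did so in this comparison was not counted. In all, 0 of 9 members passed the adjusted threshold, against 0 of 19481 genes or 0%, and 1, Cdkn1a, passed the looser criterion against 11.9%. By DESeq2 916 genes passed, none of them a member, with Cdkn1a at an adjusted p of 0.0828. The maternal markers summed to more in both G&N-L libraries than in either G&N library, and so did the late 2-cell markers (2399 and 2828 against 1971 and 2093 CPM), and their part in the Cdkn1a difference was not tested.

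In early 2-cell embryos no member was called between the media. Of 8 members tested 0 passed either criterion, against 0% of 17343 genes at the adjusted threshold and 4.50% at the looser one, and 0 passed by DESeq2; over all genes 784 had an unadjusted p under 0.05 and 37 passed by DESeq2. Cdkn1a had a log2 fold change of -0.22 (95% interval -2.59 to 2.15), Trp53 -0.31 (-0.94 to 0.33) and Mdm2 -0.26 (-0.83 to 0.31). Both G&N-L libraries of Mdm2 lay below both of G&N, and the share of all genes that separated in this way was not counted. Atf4 had -0.59 (-1.70 to 0.53), with 1 high G&N library, and Gadd45a 0.77 (-3.34 to 4.89). Trib3 was not tested, since neither group held a count.

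Injection of Lac-CoA into embryos without lactate was set beside both lactate groups. Both comparisons reuse libraries of the lactate comparison, so their values are not independent of it. Cdkn1a was 26 ± 2.85 CPM in Lac-CoA, a log2 fold change of 1.38 over G&N-L (standard error 0.389, 95% interval 0.39 to 2.37, edgeR, adjusted p = 0.305). Set against G&N it differed by 0.04 on the log2 scale (standard error 0.358, 95% interval -0.85 to 0.93, edgeR, adjusted p = 1), an interval that also holds differences of more than 0.5 either way on the log2 scale. Gadd45a was 19.0 ± 2.90 CPM, above every library of G&N-L and of G&N, and the share of all genes that separated so was not counted. The log2 fold change of Gadd45a was 1.75 over G&N-L (edgeR, adjusted p = 0.311) and 1.14 over G&N (edgeR, adjusted p = 0.544). Ddit3 was 63.4 ± 1.19 CPM, the highest mean of any group, with 0.81 over G&N-L (edgeR, adjusted p = 0.305) and 0.83 over G&N (edgeR, adjusted p = 0.500). Atf4, at 43.3 ± 10.3 CPM, had 0.33 over G&N-L and 0.85 over G&N (edgeR, adjusted p = 0.758 and 0.586). Ccng1 had 1.83 over G&N-L (standard error 0.770, edgeR, adjusted p = 0.404), which without Lac-CoA replicate 2 was 0.82. Trp53 and Mdm2 lay between 0.09 and 0.24 in both comparisons.

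Against G&N-L, 7 of 8 members tested had a higher estimate, with a median of 0.57 where all genes had -0.01. All 10 maternal markers had lower estimates in Lac-CoA than in G&N-L (median -0.63). The late 2-cell markers summed to 3231 and 3374 CPM in Lac-CoA, with 6 of 7 higher than in G&N-L and 7 of 7 higher than in G&N (median 0.95). The part of these markers in the members' values was not tested. None passed the adjusted threshold (0 of 8, against 0% of 19610 genes; 2609 genes had an unadjusted p under 0.05 and 1183 passed by DESeq2, 0 of them members), and 3 passed the looser criterion, against 13.2%. Against G&N, 8 of 9 had a higher estimate, with a median of 0.26 where all genes had 0.01, and 0 passed against 0% of 19613 genes; 1670 genes had an unadjusted p under 0.05 and 471 passed by DESeq2, 0 of them members. There 3 members, Gadd45a, Atf4 and Ddit3, passed the looser criterion, against 8.51%. Lac-CoA embryos were injected and the G&N and G&N-L embryos were not stated to be, so injection and compound cannot be told apart.

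Between H3K18R and WT embryos, Cdkn1a was the member that stood out. It was 30.3 ± 11.2 CPM in H3K18R and 6.95 ± 1.16 in WT, which is 2.13 on the log2 scale (standard error 0.483, 95% interval 0.92 to 3.33, edgeR, adjusted p = 0.734), and both mutant libraries lay above both WT libraries. DESeq2 called it at an adjusted p of 0.0385. Its range without each library in turn was 1.69 to 2.45. Gadd45a (-1.01), Atf4 (-0.70), Trib3 (-0.97) and Asns (-2.58) had lower estimates in H3K18R, with no overlap between the libraries and adjusted p from 0.800 to 0.856 (edgeR). The share of all genes without overlap was not counted. Trp53, Mdm2, Ccng1 and Ddit3 had overlapping libraries and estimates between -0.23 and 0.25. By edgeR 0 of 9 members passed, against 0.00565% of 17704 genes, with 1 member at an unadjusted p under 0.05 and 1 by DESeq2; 1 passed the looser criterion, against 6.44%, and 118 genes passed by DESeq2. Maternal markers summed to 3931 and 8138 CPM in H3K18R against 3562 and 3671 in WT, and Cdkn1a was higher in the H3K18R library with the higher sum; the part of this in the difference was not tested.

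**Figure D4:**
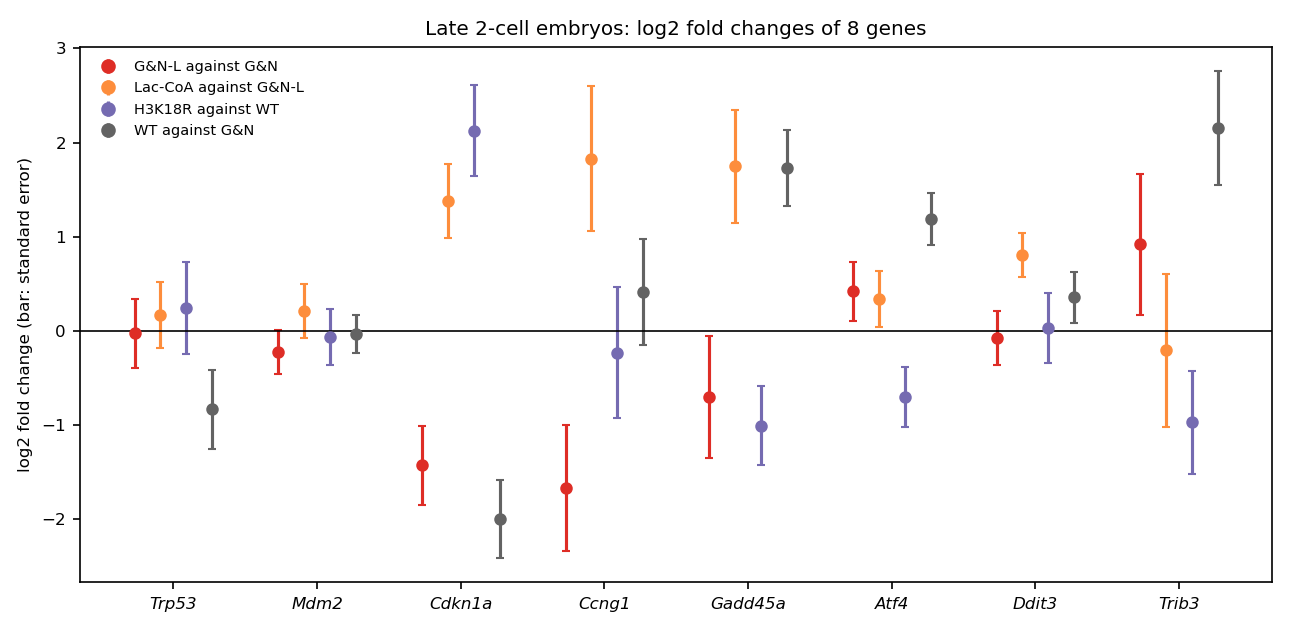
Log2 fold changes of 8 genes in 4 comparisons of late 2-cell embryos, as edgeR estimates with the standard error; the comparisons share G&N, G&N-L or WT libraries. Cdkn1a is lower without lactate (-1.43), higher with Lac-CoA (1.38) and in H3K18R (2.13) and lower in WT than in G&N (-1.99), while Trp53 and Mdm2 stay within 1 of 0 in all 4.

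WT embryos differ from G&N embryos by the absence of Gne140 and NMN, and by whatever injection they received, so these cannot be told apart. Cdkn1a was 6.95 ± 1.16 CPM in WT and 27.0 ± 7.42 in G&N, which is -1.99 on the log2 scale (standard error 0.417, edgeR, adjusted p = 0.0613). The integrated stress response genes and Gadd45a had the opposite sign. Gadd45a was 31.4 ± 9.03 against 9.20 ± 2.06 CPM, with 1.73 (standard error 0.407, edgeR, adjusted p = 0.0732). Atf4 was 60.1 ± 4.39 against 25.5 ± 2.95 CPM, with 1.19 (standard error 0.277, edgeR, adjusted p = 0.0722). Trib3 was 11.9 ± 2.92 against 2.61 ± 0.753 CPM, with 2.15 (standard error 0.603, edgeR, adjusted p = 0.0965). Asns, at 4.16 ± 0.531 against 0.747 ± 0.437 CPM, had 2.44 (edgeR, adjusted p = 0.199). None of these 5 genes overlapped between the groups, nor did Trp53 and Ddit3. Libraries this few can also separate without a difference, and the share of all genes that did so was not counted. By edgeR 0 of 9 members passed, against 4.62% of 18986 genes, with 4 at the looser criterion against 28.0%. DESeq2 called the same 4, Cdkn1a (adjusted p = 0.00195), Gadd45a (0.00284), Atf4 (0.00227) and Trib3 (0.0139), among 4104 of 18986 genes. Maternal markers summed to 3562 and 3671 CPM in WT against 12982 and 14909 in G&N, and their part in these differences was not tested.

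Of 16 regulators of p53, 15 were tested in each comparison. With lactate, 3 rose and 1 fell from early to late embryos by edgeR at an adjusted p under 0.05, where 13.7% of all genes were called. Without each library in turn, 220 to 2446 genes were called between stages with lactate and 335 to 1393 without, in place of 2654 and 2203. The kinase Atm, which signals DNA breaks, rose from 7.06 ± 3.72 to 92.9 ± 22.6 CPM (log2 fold change 3.68, edgeR, adjusted p = 0.0125). Chek2, its partner kinase, rose from 6.31 ± 0.264 to 38.5 ± 1.34 CPM (edgeR, adjusted p = 0.0185), and the deacetylase Sirt1 from 38.6 ± 12.5 to 138 ± 0.360 CPM (edgeR, adjusted p = 0.0418). Chek1, the replication checkpoint kinase, fell from 2597 ± 50.6 to 498 ± 17.1 CPM (edgeR, adjusted p = 0.00800). Without lactate, where 11.8% of all genes were called, 2 rose, Atm and the p53 ligase gene Cop1, and 3 fell, Chek1, the p53 ligase gene Rchy1 and Rpl11, a ribosomal protein that binds MDM2. Chek1 there fell from 2566 ± 221 to 460 ± 57.2 CPM (edgeR, adjusted p = 0.00489). Between WT and G&N, 4 were higher in WT and 0 lower, led by Rpl11, Sirt1 and Atm (edgeR, adjusted p = 0.0413 for each), where 4.62% of all genes were called. That comparison had 0 genes called without G&N replicate 1, WT replicate 1 or WT replicate 2, and 435 instead of 877 without G&N replicate 2. In the other late comparisons and in early embryos no regulator passed (0 of 15 each). The smallest p belonged to Sirt1 in late G&N-L against G&N (log2 fold change -1.11, edgeR, adjusted p = 0.332), to Atm in Lac-CoA against G&N-L (0.98, adjusted p = 0.294) and to Rchy1 in Lac-CoA against G&N (-0.65, adjusted p = 0.500). In early embryos and in H3K18R it was Rpl5, at 0.75 and -0.73 (edgeR, adjusted p = 1 and 0.818), and for the interaction Rpl11 (-1.11, adjusted p = 0.637).

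Of 32 other genes listed as p53 targets, 27 were tested between stages. Whether each of them responds to p53 in mouse embryos was not tested. With lactate 5 rose and 1 fell, where 13.7% of all genes were called, and the median log2 fold change was 0.33 against 0.08 over all genes. Without lactate 4 rose and 2 fell, where 11.8% of all genes were called, and the median was 1.0 against 0.15. The growth inhibitor Tob1 rose from 1.37 ± 0.647 to 69.4 ± 21.5 CPM with lactate (edgeR, adjusted p = 0.00712) and from 1.80 ± 0.591 to 30.04 ± 18.6 CPM without (adjusted p = 0.0259). Tigar, which restrains glycolysis, rose to 100 ± 14 CPM with lactate and to 65.0 ± 22.2 CPM without (edgeR, adjusted p = 0.0184 and 0.0316). The repair nuclease gene Ercc5 rose with lactate (adjusted p = 0.0139), and the pro-apoptotic Pmaip1 rose without, from 0.489 ± 0.306 to 21.8 ± 2.72 CPM (edgeR, adjusted p = 0.0131). Ddb2, a sensor of ultraviolet damage, fell in both, to 10.4 ± 2.47 and 7.83 ± 0.368 CPM (edgeR, adjusted p = 0.0260 and 0.0139), and Ckap2, a spindle gene, fell without lactate (adjusted p = 0.0248). So members of the list moved in both directions between stages.

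The p53 targets had a median of -0.48 in late G&N-L against G&N, where 18 of 28 were lower and all genes had a median of -0.02, and a median of 0.35 in Lac-CoA against G&N-L. No p53 target passed in any late comparison or in early embryos (0 of 23 to 28). At the looser criterion 3 of 28 were lower and 0 higher in late G&N-L against G&N, where 11.9% of all genes passed it. Ckap2 had the smallest p there (log2 fold change -1.09, edgeR, adjusted p = 0.311) and for the interaction (-1.07, adjusted p = 0.630). The receptor gene Eda2r led in Lac-CoA, at 13.3 ± 4.23 CPM against 1.63 ± 0.935 without lactate and 0.195 ± 0.276 with it (edgeR, adjusted p = 0.294 and 0.500). In early embryos it was Aen (-1.68, adjusted p = 1), in H3K18R Rrm2b (0.70, adjusted p = 0.818) and in WT against G&N Rps27l (-1.01, adjusted p = 0.0508), all by edgeR.

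The 12 genes that set eIF2 phosphorylation and use, the eIF2 kinases, the phosphatase subunits, eIF2α and the eIF2B subunits, were all tested in each comparison. In late G&N-L against G&N 10 of 12 had lower estimates, with a median log2 fold change of -1.06 where all genes had -0.02, and 0 passed the adjusted threshold while 3 passed the looser criterion, which 11.9% of all genes did. In Lac-CoA against G&N-L 9 of 12 had higher estimates, with a median of 0.83, and again 0 passed while 3 passed the looser criterion, which 13.2% of all genes did. Eif2b4, a subunit of the exchange factor that eIF2 phosphorylation blocks, led both. It held 23.5 ± 7.24 CPM in late G&N, 5.16 ± 0.234 in G&N-L and 26.9 ± 1.61 in Lac-CoA (edgeR, adjusted p = 0.313 and 0.294). In early embryos it also had the smallest p, at -1.32 (edgeR, adjusted p = 1). These comparisons share the G&N-L libraries, so a deviation of those would give both signs.

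Between stages, Ppp1r15b, a subunit of the phosphatase that reverses eIF2 phosphorylation, rose in both media. It went from 1.41 ± 1.1 to 43.7 ± 9.38 CPM with lactate and from 1.93 ± 1.58 to 20.2 ± 1.68 CPM without (edgeR, adjusted p = 0.0227 and 0.0484). Eif2b5 also rose with lactate (adjusted p = 0.0248), and Eif2b3 fell in both media, to 31.3 ± 17.4 and 12.4 ± 10.5 CPM (edgeR, adjusted p = 0.0436 and 0.0455). Eif2b1 fell without lactate (adjusted p = 0.0368). That makes 2 higher and 1 lower with lactate, where 13.7% of all genes were called. Without lactate 1 was higher and 2 were lower, where 11.8% of all genes were called. The median of the 12 genes without lactate was -0.33, which became 0.03 with library totals. The median of all genes moved as well, from 0.15 to 0.51. Between WT and G&N 4.62% of all genes were called. Eif2s1, the gene of eIF2α, was the only call between WT and G&N, at 1040 ± 27.9 against 316 ± 97.4 CPM (edgeR, adjusted p = 0.0413), a comparison in which 0 genes were called without G&N replicate 1 or either WT library. The smallest p in H3K18R was that of Eif2b3 (-0.63, adjusted p = 0.833), in Lac-CoA against G&N that of Eif2s1 (0.60, adjusted p = 0.663), and for the interaction that of Ppp1r15a (-1.80, adjusted p = 0.650), by edgeR.

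Of 28 ATF4 targets and partners, few passed. Nupr1, a small stress protein, rose between stages in both media, from 1.24 ± 0.139 to 13.8 ± 0.152 CPM with lactate and from 1.56 ± 1.57 to 26.6 ± 4.52 CPM without (edgeR, adjusted p = 0.0268 and 0.0472). It was the only call of 26 tested with lactate, where 13.7% of all genes were called. Psat1, an enzyme of serine synthesis, was the other call without lactate, where 11.8% of all genes were called. It went from 0 counts to 28.5 ± 6.93 CPM, at least 586-fold (edgeR, adjusted p = 0.00794). Late embryos with lactate held 78.2 ± 32.1 CPM of Psat1. Nupr1 was also higher in WT, at 126 ± 71.7 CPM against 13.8 ± 0.152 in G&N (edgeR, adjusted p = 0.0413), where Shmt2 and Slc3a2, genes of serine metabolism and amino acid transport, were lower (edgeR, adjusted p = 0.0463 and 0.0497). None of these 3 was called without G&N replicate 1 or either WT library, when 0 genes passed. Lac-CoA held 113 ± 31 CPM of Nupr1, with log2 fold changes of 2.04 over G&N-L and 3.13 over G&N (edgeR, adjusted p = 0.294 and 0.394). So in WT the list held 1 gene called higher and 2 called lower, where 4.62% of all genes were called. The median of the list was 0.22 in late G&N-L against G&N and -0.02 in Lac-CoA against G&N-L. Between stages with lactate it was -0.24, which became 0.13 with library totals. The median of all genes moved there as well, from 0.08 to 0.46. In late G&N-L Psat1 led (-1.40, edgeR, adjusted p = 0.332), in early embryos Shmt2 (-0.53, adjusted p = 1), in H3K18R Slc7a11 (0.78, adjusted p = 0.838) and for the interaction Shmt2 (1.14, adjusted p = 0.650).

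Of 15 genes of the unfolded protein response of the endoplasmic reticulum, Dnajb9, a chaperone partner, rose from 32.9 ± 9.26 to 969 ± 195 CPM with lactate and from 47.1 ± 16.4 to 615 ± 79.5 CPM without (edgeR, adjusted p = 0.00599 and 0.00600). Herpud1, of the degradation machinery, rose from 0 counts to 3.84 ± 2.91 CPM with lactate, at least 127-fold (edgeR, adjusted p = 0.0421). These were the 2 calls of 14 tested with lactate, where 13.7% of all genes were called. Dnajb9 was the only call of 13 without lactate, where 11.8% of all genes were called. In other comparisons none passed. Dnajb9 had the smallest p in late G&N-L (-0.60, edgeR, adjusted p = 0.351), in WT against G&N (0.95, adjusted p = 0.0589) and for the interaction (-1.21, adjusted p = 0.639). Elsewhere it belonged to Atf6 in early embryos (1.06, adjusted p = 1), Hspa5 in H3K18R (-1.25, adjusted p = 0.762), Pdia4 in Lac-CoA against G&N-L (0.98, adjusted p = 0.294) and Creld2 in Lac-CoA against G&N (0.75, adjusted p = 0.500), by edgeR.

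The list of relatives held 10 genes, the other Gadd45 genes, kinase inhibitors, Ccng2, Chac2 and transcription factors of the ATF and CREB family. Between stages, Gadd45b rose in embryos with lactate, from 0.472 ± 0.169 to 13.4 ± 2.36 CPM (edgeR, adjusted p = 0.0210). Atf1 rose in both media, to 414 ± 31 and 264 ± 5.91 CPM (edgeR, adjusted p = 0.00607 and 0.00780), and Atf2 rose without lactate (adjusted p = 0.0317). Chac2, the relative of Chac1, fell with lactate from 63.2 ± 0.288 to 11.8 ± 7.21 CPM (edgeR, adjusted p = 0.0408). That makes 2 higher and 1 lower of 10 with lactate, where 13.7% of all genes were called. Without lactate 2 were higher and 0 lower, where 11.8% of all genes were called. No relative passed in other comparisons. Gadd45g led in Lac-CoA, at 34.7 ± 6.32 CPM against 10.7 ± 0.137 without lactate and 8.27 ± 3.78 with it (edgeR, adjusted p = 0.294 and 0.500), in the same direction as Gadd45a. Gadd45b led in H3K18R (-1.27, adjusted p = 0.734), Atf1 in late G&N-L (-0.60, adjusted p = 0.332) and for the interaction (-0.71, adjusted p = 0.650), Atf7 in early embryos (1.30, adjusted p = 1) and Ccng2 in WT against G&N (-1.08, adjusted p = 0.106), by edgeR.

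**Figure D5:**
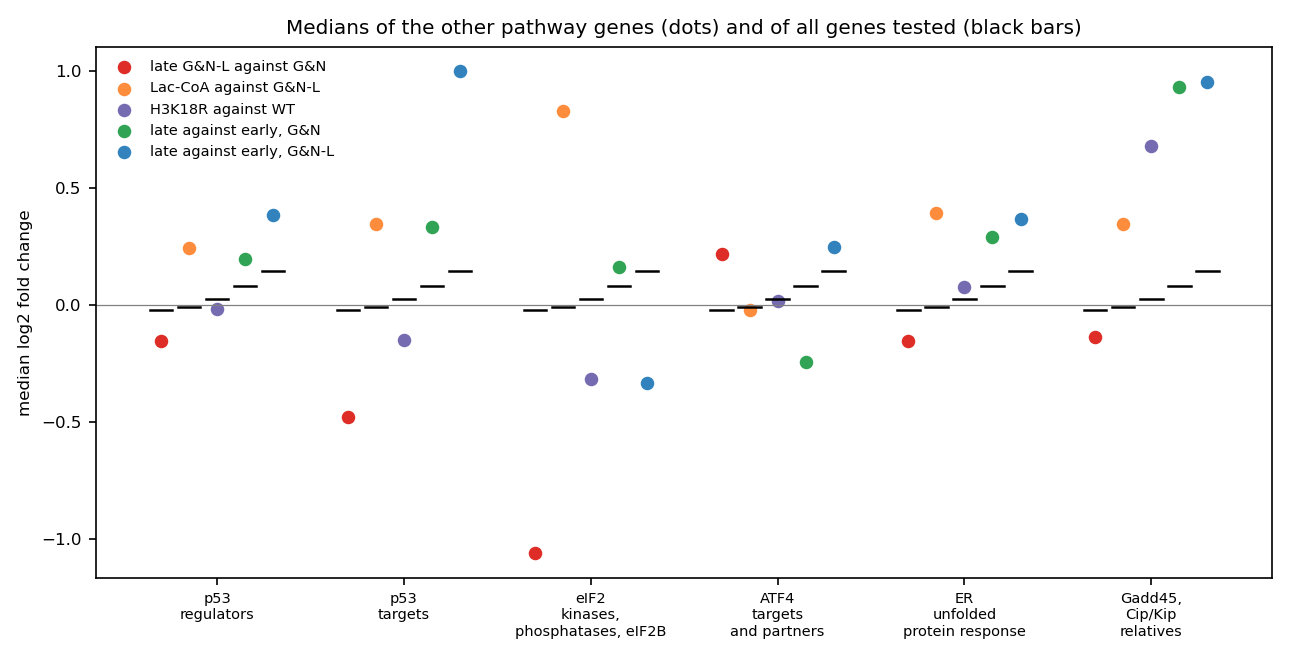
Median log2 fold change of 6 lists of other pathway genes in 5 comparisons (dots), beside the median of all genes tested in the same comparison (black bars); medians have no error bar. The genes of eIF2 phosphorylation and use stand at -1.06 in late G&N-L against G&N and 0.83 in Lac-CoA against G&N-L, comparisons that share the G&N-L libraries.

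The genes whose pattern over the 14 libraries was most like each member were found by Pearson correlation of log2(CPM + 1) over 25041 genes; the 14 points share 7 conditions and the stage. Trp53 was most like Hhex (r = 0.974), Med28 and Rnf114, and Mdm2 like Cep192 (r = 0.955), Zfyve9 and Anapc1. Cdkn1a was most like Tubb5 (r = 0.947), Syde2 and Kcnk5, and Gadd45a like Polr2h (r = 0.976), Prkcz and Ptpmt1. Ccng1 was most like Man1a2 (r = 0.923), Ppp1r3g and 1700041I07Rik. None of the 30 genes named here was on any of the lists above. Atf4 was most like Pfkfb3 (r = 0.914), Fn3krp and Gak, Ddit3 like Prmt7 (r = 0.940), Pomc and Arl5b, and Trib3 like Fam120a (r = 0.976), Fkbp3 and Fcgr2b. Asns was most like Pcnx2 (r = 0.890), Gm5340 and Hrk. Chac1 was most like Pak6 (r = 0.985), 1700052I22Rik and 9530020I12Rik, a value set by the 3 libraries that held nearly all of its counts.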

How the data were processed

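RNA-seq libraries of early and late 2-cell mouse embryos were analysed from the gene counts that the authors deposited, unnormalized whole-number counts per gene. Per the labels and the submitters' processing notes, reads were checked and trimmed with FastQC and Trim Galore, aligned to mm39 with HISAT2 and counted with featureCounts; versions and the strand setting are not given in the sources used here. The methods state 3 replicates per group, and 2 libraries per group were analysed here. The 10 members and all gene lists were chosen with earlier results of these data known. Only the 4 libraries being compared (8 for the interaction) entered a fit with edgeR 4.0.16 in R 4.3.3 (limma 3.58.1), with filterByExpr, TMM and the quasi-likelihood test, and Benjamini-Hochberg adjustment over all genes tested at 0.05. A looser criterion, unadjusted p under 0.05 and log2 fold change beyond 0.5, follows the study's own plots. Intervals are 95% and use the fit's degrees of freedom. With 2 libraries against 2 an exact permutation test cannot go below p = 0.333, so none is given. Alternatives were DESeq2 1.42.0, its size factors, library totals, other count filters, a joint fit of all 14 libraries, blocking on the replicate number, and leaving out each library. Same-numbered libraries did not deviate together (21 correlations from -0.0913 to 0.0589), so the numbers were not taken as pairs. Replicates differed by more than sampling noise (chi-square per degree of freedom 47.8 to 195). The code was checked on simulated counts with known changes. That check does not show how the fits perform at the spread of these libraries.

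Library totals of 20350427 to 61275465 counts set the precision. A floor of 3 counts was used where a gene had 0, and such floors cover counting error only. Loci are from GRCm39 with GENCODE vM39, and promoter sequences from RefSeq. Of the symbols, 145 are listed more than once, and genes were followed by identifier. In each list at most 3 called genes per direction, taken by lowest p, were named, or the 1 with the smallest p where none passed, and for each member the 3 genes with the highest correlation.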

Additional observations from a re-analysis of the deposited data

How the results depend on the processing

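Counts of genes past an adjusted p of 0.05 depended on the tool and filter more than the members' fold changes did. With DESeq2 they were 916 for late lactate removal, 37 for early lactate removal, 118 for H3K18R, 1183 for Lac-CoA against G&N-L, 471 for Lac-CoA against G&N, 5959 and 5218 between stages with and without lactate, 4104 for WT against G&N and 231 for the interaction, where edgeR gave 0, 0, 1, 0, 0, 2654, 2203, 877 and 0. Members called by DESeq2 numbered 1 for H3K18R, 6 between stages without lactate and 4 for WT against G&N. With no filter on low counts the counts were 317, 42, 78, 3, 22, 5060 (stages with lactate), 3668 (WT against G&N) and 361 (interaction), with 2 members between stages without lactate and 3 for WT against G&N. With at least 10 counts in every library they were 114 for late lactate removal, 2 and 20 for Lac-CoA, and 2971 for WT against G&N, with 4 and 5 members in the same 2 comparisons. With all 14 libraries in one fit they were 11, 4 and 9 for lactate removal (late, early) and H3K18R, with 2 members between stages without lactate, and library totals gave 4 members there. The cause of these changes was not tested.

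Signs of some estimates that passed no threshold changed with the tool, scaling, filter or block. Trp53 in late lactate removal (-0.03) was 0.027 with DESeq2 and with its size factors, 0.0039 with library totals and 0.013 with no filter. Mdm2 in WT against G&N (-0.03) was 0.037 with DESeq2 and with its size factors and 0.013 in the fit of all libraries, where Ccng1 in early embryos was -0.024, and Mdm2 and Cdkn1a in Lac-CoA against G&N were -0.0023 and -0.055. Atf4 between stages with lactate (-0.16) was 0.19 with library totals and 0.011 with at least 10 counts. With the replicate block, which the check of pairing did not favour, Asns was -1.07 in late lactate removal (1.74 without the block) and -0.11 between stages without lactate (1.42), and Ddit3 in H3K18R was -0.011. Under that block 1 member instead of 3 passed between stages with lactate, 0 instead of 1 without, and 1391 instead of 2203 genes passed without lactate.

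Leaving out each library gave log2 fold changes from -0.26 to 0.17 for Trp53 and -0.22 to 0.17 for Ddit3 in late lactate removal. In early embryos they ran from -0.55 to 0.21 for Cdkn1a, -0.015 to 0.21 for Ccng1, -0.065 to 3.02 for Gadd45a, -1.04 to 0.088 for Atf4 and -0.53 to 0.080 for Ddit3. In H3K18R they ran from -0.037 to 0.62 for Trp53, -0.34 to 0.17 for Mdm2, -1.32 to 0.38 for Ccng1 and -0.38 to 0.34 for Ddit3, with 0 to 1 genes passing. For Lac-CoA against G&N-L they ran from -0.020 to 0.39 for Trp53, -0.13 to 0.50 for Mdm2 and -1.12 to 0.35 for Trib3, and against G&N from -0.29 to 0.37 for Mdm2, -0.22 to 0.31 for Cdkn1a, -0.78 to 0.85 for Ccng1 and -0.15 to 1.37 for Trib3. Between stages with lactate Atf4 ran from -0.59 to 0.62, with 0 to 2 members and 220 to 2446 genes passing, and without lactate 0 to 0 members and 335 to 1393 genes passed. In WT against G&N Mdm2 ran from -0.11 to 0.062, with 0 to 435 genes passing, and for the interaction Mdm2 ran from -0.11 to 0.25 and Ddit3 from -0.14 to 0.48, with 0 to 26 genes passing. With 1 library left in a group, that library is assumed to vary like the others of the fit.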
